A study of Homo sapiens with 15 samples.

Results

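The comparison described here sets ribosome footprints recovered with eIF3E against the total footprints of the same kind of lysate, with 1 library of each. It covers the 3302 genes, of 20248 in the footprint table, that had at least 100 counts in at least 1 of these libraries. A gene could pass this rule through 1 library alone, and such genes lean to the side of that library. These genes held 85.2% of the counts of the eIF3E-bound library and 83.9% of those of the total library. The cells were MCF-10A, a non-tumorigenic human mammary epithelial line with basal features. Footprints of eIF3E-bound ribosomes, of eIF3B-bound ribosomes and of all ribosomes in the lysate came from 1 library each, and the labels name no siRNA for these cells. In the remaining libraries cells received 20 nM siRNA for 72 h, against eIF3e or as a control, and footprints and total RNA were each sequenced from 3 libraries per siRNA. Whether the 3 libraries of a siRNA came from separate cultures is not stated, so a p-value speaks only of the spread among these libraries, which may be technical. How the bound ribosomes were recovered is not stated, and no mock precipitation was analysed here.

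The eIF3 complex sits on the small ribosomal subunit and helps to load it, with the initiator tRNA, onto mRNAs. eIF3E is one of its subunits, and eIF3B belongs to its core. In human cells eIF3 is known to stay on some ribosomes after the large subunit has joined, during early elongation, which selective ribosome profiling measures by precipitating ribosomes with an eIF3 subunit and sequencing the mRNA fragments they protect. Ribosomes of the mitochondrial matrix start with their own initiation factors and make the 13 proteins encoded by mitochondrial DNA without eIF3. The question of the comparison is on which mRNAs the ribosomes that carry eIF3E are found more or less often than ribosomes in general.

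The eIF3E-bound library held 1630872 counts, the eIF3B-bound library 1433096 and the total library 1224606, against 1889543 to 3447360 in the siRNA footprint libraries. A count of 0 allows up to 1.84 CPM (counts scaled to a library of 1000000) in the eIF3E-bound library and 2.45 CPM in the total library. All CPM values below were scaled with TMM factors to the total library. The siRNA libraries took TMM factors of 0.598 to 0.681 on that scale, so their composition differed from that of the single libraries, and levels are compared within either set. The 11 basal epithelial markers examined all reached 100 counts and summed to 35229 CPM in eIF3E-bound and 29300 CPM in total footprints. Of 16 markers of fibroblasts, endothelium and blood, 11 had no count in either library and 2 reached 100 counts, DCN and CD14, with a sum of 682 CPM in eIF3E-bound and 560 CPM in total footprints.

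Most genes lay within 1.5-fold between the libraries, and of the gene lists examined the mitochondrially encoded proteins differed most, with fewer footprints in the eIF3E-bound library. The log2 ratio of eIF3E-bound over total had a median of 0.07 and a standard deviation of 0.54 across the 3302 genes. At 1.5-fold, 447 genes (13.5%) were higher and 411 (12.4%) lower in eIF3E-bound footprints, which is 26% of the genes, and at 2-fold 96 (2.91%) were higher and 101 (3.06%) lower, or 5.97% in all. With 1 library on each side there is no replicate check and no p-value, and the 95% intervals given with ratios are exact and cover counting error only. For the size of library-to-library differences in the same assay, the 3 pairs of control siRNA footprint libraries had 6.69, 16.8 and 10.1% of genes past 1.5-fold at the same minimum. Those libraries were deeper than the single ones and may be technical repeats, so their shares can understate differences between separately prepared libraries. The deeper eIF3E-bound library alone brought 792 of the genes past 100 counts, and 287 of the 447 higher genes were among them. The total library alone brought 157, with 138 of the 411 lower genes, so these groups leaned to their side by selection. Among the 2353 genes with 100 counts in both libraries, 160 were higher and 273 lower. That rule leans to the lower side, since 100 counts stand for a higher level in the shallower total library.

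**Figure D1:**
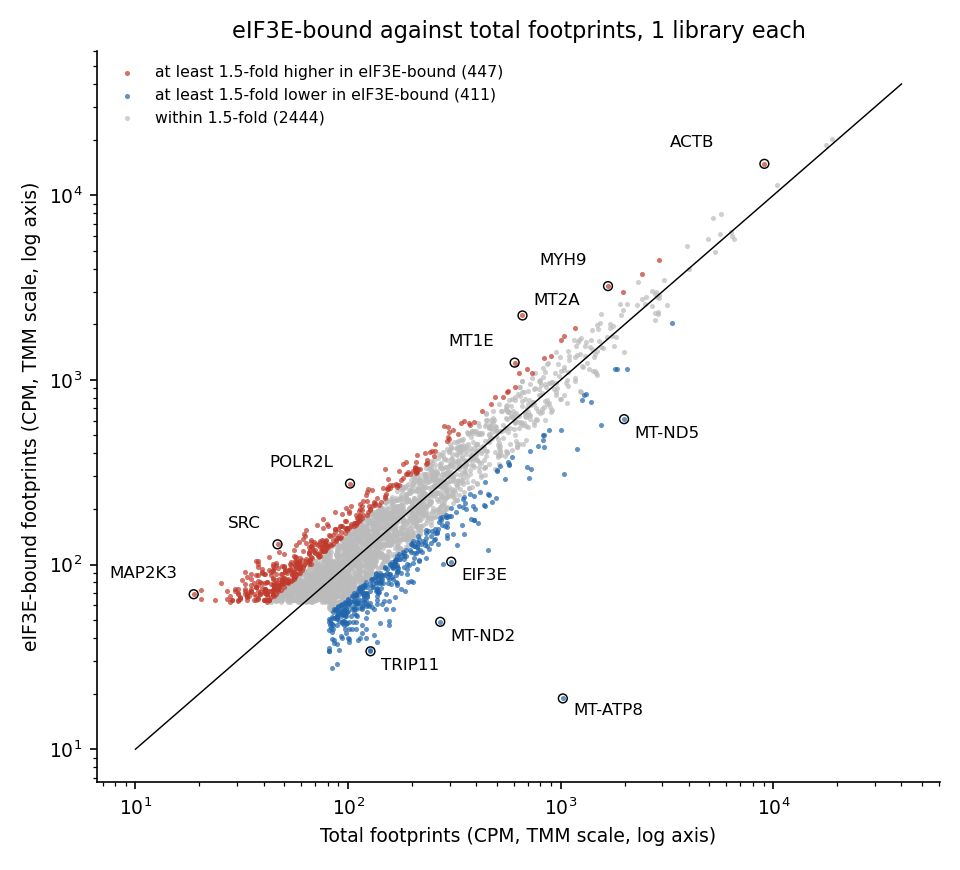
Footprints of each of the 3302 genes in CPM on log axes, eIF3E-bound on the vertical and total on the horizontal axis, 1 point per gene, with the line of equal levels. Genes at least 1.5-fold higher in eIF3E-bound footprints (447) lie above the line and those at least 1.5-fold lower (411) below it, and MT-ATP8, at 18.8 CPM in eIF3E-bound and 1022 CPM in total footprints, lies farthest from it.

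All 12 mitochondrially encoded genes that reached the minimum were lower in eIF3E-bound footprints, against 12.4% of all genes. Their median log2 ratio was −1.72, and they ranged from −5.76 to −0.84. Summed over the 13 genes, mitochondrially encoded counts made up 0.299% of the eIF3E-bound library, 0.268% of the eIF3B-bound library and 0.963% of the total library, and the summed ratio of eIF3E-bound over total was 0.318-fold (log2 −1.65, interval −1.70 to −1.61). The siRNA libraries, all of unselected footprints, had shares of 1.68, 2.07 and 1.66% after eIF3e siRNA and 2.14, 2.34 and 2.13% after control siRNA. Every unselected library thus held a larger share than both eIF3-bound libraries. Across the control siRNA libraries, each taken against the mean of the 3, the median of the 12 genes varied with a standard deviation of 0.13 on the log2 scale. That spread leaves out the difference between unselected libraries of the 2 sets, 0.963% in the total library against 2.14, 2.34 and 2.13% after control siRNA. It is therefore no measure of how far separately prepared libraries differ in these genes.

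MT-ATP8, a subunit of the mitochondrial ATP synthase, had 30 counts in eIF3E-bound and 1252 in total footprints, which is 18.8 CPM against 1022 CPM. The eIF3B-bound library held 18.6 CPM. After eIF3e siRNA MT-ATP8 had 1673, 1869 and 1392 CPM, against 1577, 1707 and 1076 CPM after control siRNA, and these groups overlapped. The log2 ratio of eIF3E-bound over total was −5.76 (interval −6.34 to −5.24), the lowest of the 3302 genes. The reading frame of MT-ATP8 overlaps that of MT-ATP6, and that of MT-ND4L overlaps MT-ND4, so the split of counts within these pairs depends on counting rules that the labels do not give. MT-ATP6 had 119 CPM in eIF3E-bound, 46.5 CPM in eIF3B-bound and 456 CPM in total footprints.

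The most abundant of the 13 genes in the total library was MT-ND5, a subunit of respiratory complex I, with 976 counts in eIF3E-bound and 2430 in total footprints. It stood at 613 CPM in eIF3E-bound, 463 CPM in eIF3B-bound and 1984 CPM in total footprints, a log2 ratio of −1.70 for eIF3E-bound (interval −1.80 to −1.59). Other complex I subunits lay on the same side: MT-ND2 had a log2 ratio of −2.47, MT-ND4L −1.87, MT-ND3 −1.83, MT-ND4 −1.74 and MT-ND1 −1.09. Cytochrome b of complex III, MT-CYB, had 421 CPM in eIF3E-bound, 479 CPM in eIF3B-bound and 1192 CPM in total footprints. Of the cytochrome oxidase subunits, MT-CO1 had a log2 ratio of −1.44, MT-CO3 −1.28 and MT-CO2 −0.84, the smallest difference of the 12. MT-ND6 stayed under the minimum with 13 counts in eIF3E-bound and 66 in total footprints (log2 −2.72).

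**Figure D2:**
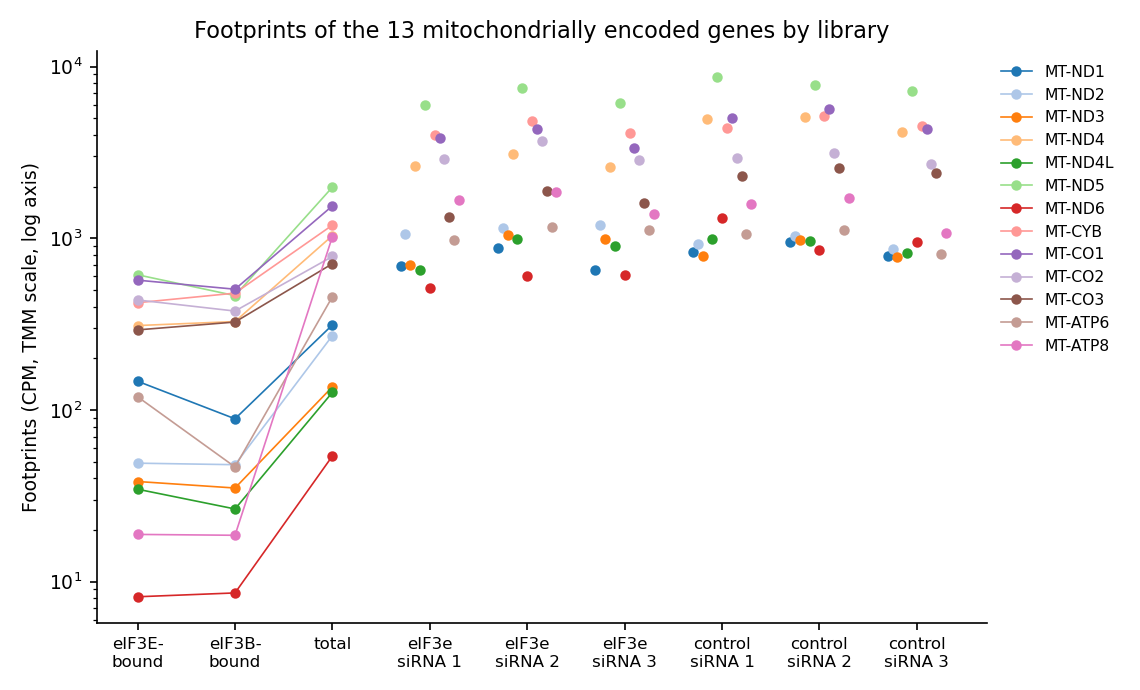
Footprints of the 13 mitochondrially encoded genes in CPM on a log axis in the eIF3E-bound, eIF3B-bound and total libraries, joined by lines per gene, and in the 3 eIF3e siRNA and 3 control siRNA libraries as points. All 13 genes were higher in the total library than in both bound libraries, with MT-ATP8 at 18.8 CPM eIF3E-bound and 1022 CPM total.

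In the siRNA libraries, which the ratio did not use, 3 of these 12 genes fell after eIF3e siRNA and none rose, by edgeR's quasi-likelihood test with adjustment over 9228 genes. Of all genes tested 10% rose and 8.46% fell, and of those with at least 100 counts in either single library 19.8% rose and 12% fell. MT-ND4 fell (log2 −0.75, adjusted p = 1.23e-05), as did MT-CO3 (log2 −0.58, adjusted p = 0.000727). MT-CO1 fell by 0.36 (adjusted p = 0.0314), a call that was lost without eIF3e siRNA replicate 1 or 3 or without control siRNA replicate 2, with adjusted p-values of up to 0.251.

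Of the 15 genes farthest below equality, ranked by the interval bound nearest to it, 9 were mitochondrially encoded and 6 nuclear. Of these 15, 8 reached the minimum only in the total library, a selection that leans to that side. TRIP11, which encodes the golgin GMAP-210 (chromosome 14, 91965991 to 92040059 in GRCh38), had 54 counts in eIF3E-bound and 156 in total footprints. That was 33.9 CPM in eIF3E-bound, 57.3 CPM in eIF3B-bound and 127 CPM in total footprints, a log2 ratio of −1.91 for eIF3E-bound (interval −2.38 to −1.46). CENPE, the kinetochore motor (chromosome 4, 103105811 to 103198343), had 47.1 CPM in eIF3E-bound, 52.3 CPM in eIF3B-bound and 156 CPM in total footprints. AKAP9, a scaffold of the Golgi and centrosome, had a log2 ratio of −1.65 and ATM, the kinase of the DNA damage response, −1.68. SNX14, a sorting nexin of the endoplasmic reticulum, was at 101 CPM in eIF3E-bound, 201 CPM in eIF3B-bound and 279 CPM in total footprints.

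The sixth nuclear gene was EIF3E itself (chromosome 8, 108201216 to 108248717), with 165 counts in eIF3E-bound and 374 in total footprints. Footprints of its mRNA were 104 CPM in eIF3E-bound, 105 CPM in eIF3B-bound and 305 CPM in total footprints. In the siRNA libraries they were 89.8, 63.8 and 103 CPM after eIF3e siRNA, against 670.0, 637 and 609 CPM after control siRNA, so the groups did not overlap. EIF3E thus had a log2 ratio of −1.56 in eIF3E-bound over total (interval −1.83 to −1.29) and fell by 2.88 after its siRNA (adjusted p = 5.3e-14).

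The remaining eIF3 subunits were mostly near equality, in a complex whose members are made from separate genes. Of 14 listed genes 10 reached the minimum, 0 were higher and 2 lower, against 13.5% and 12.4% of all genes, with a median log2 ratio of 0.12. The second lower gene was EIF3M, at 126 CPM in eIF3E-bound, 137 CPM in eIF3B-bound and 204 CPM in total footprints (log2 −0.69, interval −0.97 to −0.42). EIF3A, the largest subunit, had a log2 ratio of −0.55 in eIF3E-bound and 0.17 in eIF3B-bound. EIF3D, which contacts the mRNA cap on some transcripts, had 0.36 and 0.72 in the same order, and EIF3B had 0.14 and 0.63. EIF3G, EIF3H, EIF3I, EIF3K and EIF3L had eIF3E-bound ratios between −0.07 and 0.35. Under the minimum were EIF3F with 35 counts in eIF3E-bound and 33 in total footprints, EIF3J with 13 and 34, EIF3C with 0 and 5, and its copy EIF3CL with none. After eIF3e siRNA 6 of the 10 subunits fell, EIF3E, the target of the siRNA, included, and none rose. Without it 5 of 9 fell, against 12% of the genes with at least 100 counts in either single library, among them EIF3M by 0.86, EIF3L by 0.76 and EIF3H by 0.75 (adjusted p at most 0.000137). The call for EIF3G (log2 −0.61, adjusted p = 0.0109) was lost without eIF3e siRNA replicate 3 or control siRNA replicate 2, at up to 0.0621.

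The 15 genes farthest above equality in eIF3E-bound footprints had log2 ratios of 1.03 to 1.88. Of these, 11 reached the minimum only in the eIF3E-bound library, so that selection leaned to the higher side. MT2A, a metallothionein that binds zinc and copper (chromosome 16, 56608584 to 56609497), had the most counts of the 15, 3556 in eIF3E-bound and 809 in total footprints. Its footprints were 2232 CPM in eIF3E-bound, 2439 CPM in eIF3B-bound and 661 CPM in total footprints. The log2 ratio was 1.76 for eIF3E-bound (interval 1.65 to 1.87) and 1.88 for eIF3B-bound. Its paralog MT1E had 1239.5 CPM in eIF3E-bound, 1660.1 CPM in eIF3B-bound and 607 CPM in total footprints. Metallothionein genes are near copies of each other, so the split of reads between them is uncertain. After eIF3e siRNA MT2A had 63.2, 73.5 and 78.1 CPM, against 176, 135 and 151 CPM after control siRNA. These groups did not overlap, and MT2A fell by 1.096 (adjusted p = 9.04e-05). By the same edgeR test MT1E was not called (log2 −0.18, adjusted p = 0.752).

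POLR2L, a small subunit shared by the nuclear RNA polymerases (chromosome 11, 839721 to 842529), had 437 counts in eIF3E-bound and 125 in total footprints. That was 274 CPM in eIF3E-bound, 308 CPM in eIF3B-bound and 102 CPM in total footprints, with a log2 ratio of 1.43 for eIF3E-bound (interval 1.14 to 1.72). POLR2L had 180.5, 183 and 203 CPM after eIF3e siRNA, against 80.4, 79.8 and 94.9 CPM after control siRNA, and rose by 1.16 (adjusted p = 1.2e-05). MT2A and POLR2L, both higher in eIF3E-bound footprints, thus moved in opposite directions after eIF3e siRNA. Of the 15 genes farthest above equality 4 rose and 1 fell, and the rest did not pass the test. Among all genes with at least 100 counts in either single library 19.8% rose and 12% fell.

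MAP2K3, a kinase upstream of p38, had 110 counts in eIF3E-bound and 23 in total footprints and the highest log2 ratio, 1.88 (interval 1.22 to 2.59). The tyrosine kinase gene SRC had 129 CPM in eIF3E-bound, 203 CPM in eIF3B-bound and 46.5 CPM in total footprints (log2 1.47 for eIF3E-bound). IRS2, an adaptor of the insulin receptor, was at 154 CPM in eIF3E-bound, 238 CPM in eIF3B-bound and 63.7 CPM in total footprints. IGFBP3, a secreted binder of insulin-like growth factors, had 79.7 CPM in eIF3E-bound, 67.3 CPM in eIF3B-bound and 25.3 CPM in total footprints. In the siRNA libraries it had 745, 633 and 672 CPM after eIF3e siRNA, against 473, 401 and 372 CPM after control siRNA, and IGFBP3 rose by 0.73 on the log2 scale (adjusted p = 8.99e-05). HELZ2, a nuclear coactivator with helicase domains, had a log2 ratio of 1.47 and rose by 0.92 after eIF3e siRNA (adjusted p = 5.65e-05).

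Also among the 15 were TRAPPC2L of the TRAPP trafficking complex, SAMD1, FLYWCH1, the ubiquitin ligase gene RNF187, IMP3, whose protein acts in ribosomal RNA processing, and DBN1, which encodes the actin-binding protein drebrin. Their log2 ratios lay between 1.15 for DBN1 and 1.83 for TRAPPC2L, on 25 to 182 counts in the total library. FLYWCH1 differed between the bound libraries, with 91.6 CPM in eIF3E-bound, 30.1 CPM in eIF3B-bound and 32.7 CPM in total footprints.

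Grouped by function, the genes differed by less than the mitochondrially encoded ones. Of 48 listed transcription factor genes 32 reached the minimum, and 8 of them were higher, against 13.5% of all genes, and 0 lower in eIF3E-bound footprints. The median log2 ratio was 0.48 against 0.07 for all genes, and 0.35 over the 24 members with 100 counts in both libraries. Of the 8 higher genes 5 reached the minimum only in the eIF3E-bound library, EGR1 (130 and 46 counts) and JUND (128 and 51) among them. EGR1, an early response factor of growth signalling, had 81.6 CPM in eIF3E-bound, 45.8 CPM in eIF3B-bound and 37.6 CPM in total footprints (log2 1.12 for eIF3E-bound, interval 0.62 to 1.64). JUND had a log2 ratio of 0.95, CEBPB 0.66 and NFE2L1 0.62. After eIF3e siRNA 9 of the 32 fell and 3 rose, beside 12% falling and 19.8% rising among the genes with at least 100 counts in either single library. EGR1 had 129, 99.96 and 165 CPM after eIF3e siRNA, against 590.2, 491 and 261 CPM after control siRNA, and fell by 1.76 (adjusted p = 1.23e-07), while NFE2L1 rose by 0.54 (adjusted p = 0.00244).

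Of 6 tubulins 4 were higher and 0 lower, against 13.5% and 12.4% of all genes, with a median of 0.63. TUBB, a beta-tubulin, stood at 1087 CPM in eIF3E-bound, 1076 CPM in eIF3B-bound and 638 CPM in total footprints. TUBA1B had a log2 ratio of 0.76 in eIF3E-bound and −0.35 in eIF3B-bound. Among 32 actin and actin-binding genes 3 were higher and 4 lower (median 0.16): MYH9, the heavy chain of non-muscle myosin, had 3219 CPM in eIF3E-bound, 3727 CPM in eIF3B-bound and 1667 CPM in total footprints, ACTB a log2 ratio of 0.71 and GSN, gelsolin, 0.75. TMSB10, a thymosin that binds actin monomers and was named after its value was seen, had a log2 ratio of −1.15. Of 8 keratins 2 were higher, KRT81 (log2 0.62) and KRT6A (0.59), and 0 lower, with a median of 0.40, or 0.19 relative to genes of similar genomic span (a comparison given with the spans). All 8 keratins fell after eIF3e siRNA, against 12% of the genes with at least 100 counts in either single library, KRT81 by 1.12 (adjusted p = 2.8e-08). Tubulins, actins and keratins have close paralogs or pseudogenes, and the authors' counting could split their reads.

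Of 50 genes for chaperones, translocation and glycosylation of the endoplasmic reticulum (ER), 9 were lower, against 12.4% of all genes, and 1 higher, with a median of −0.17. KTN1, kinectin of the ER membrane, had 128 CPM in eIF3E-bound, 217 CPM in eIF3B-bound and 326 CPM in total footprints (log2 −1.35 for eIF3E-bound). TRAM1, a protein of the translocation site, had a log2 ratio of −1.17, and STT3B, a catalytic subunit of the oligosaccharyltransferase, −1.12. The abundant ER chaperone gene HSP90B1 had 2037 CPM in eIF3E-bound, 2170.5 CPM in eIF3B-bound and 3333 CPM in total footprints (log2 −0.71, interval −0.78 to −0.64). After eIF3e siRNA 21 of the 50 rose and 1 fell, beside 19.8% rising and 12% falling among the genes with at least 100 counts in either single library. HSP90B1 rose by 0.79 (adjusted p = 1.21e-05), at 4906, 4420.5 and 4687 CPM after eIF3e siRNA, against 3266, 2546 and 2349 CPM after control siRNA.

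Cytosolic chaperones and the chaperonin had 6 lower and 1 higher of 27 genes, against 12.4% and 13.5% of all genes, and a median of −0.24. HSP90AA1 had 470.1 CPM in eIF3E-bound, 420.2 CPM in eIF3B-bound and 824 CPM in total footprints, and the chaperonin subunits CCT6A, TCP1 and CCT4 had log2 ratios of −0.86, −0.77 and −0.61. The exception was HSPB1, a small heat shock protein gene named after its value was seen, with a log2 ratio of 0.78. Proteasome subunits had 7 lower and 1 higher of 34 with a median of −0.04, which turned to 0.23 over the 20 with at least 200 counts in either library, the lowest being PSMD12 (log2 −0.93) and PSMC2 (−0.91). Aminoacyl-tRNA synthetases had the lowest median after the mitochondrially encoded genes, −0.30 over 22 genes, with 2 lower (EPRS, log2 −0.80, and YARS, −0.71) and 1 higher.

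Of 40 cytosolic ribosomal protein genes 3 were higher (RPS15, log2 0.96, RPL28, 0.70, and RPL8, 0.61) and 2 lower, with a median of 0.12. Among all genes 13.5% were higher and 12.4% lower. Of 10 elongation and termination factors 3 were higher, with EEF1A1 at 1.01, and 3 lower, with EIF5A at −1.17, named after its value was seen. All 3 higher ones, EEF1A1 (113 and 43 counts), EEF1D (150 and 68) and PELO (120 and 58), reached the minimum only in the eIF3E-bound library. The median of this list was 0.07, and −0.76 over the 5 members with 100 counts in both libraries. EEF1A1 and ribosomal proteins have many pseudogenes, so their counts are uncertain. Of 15 initiation factors outside eIF3, 0 were higher and 2 lower, EIF2S1 (log2 −0.75) and EIF4G2 (−0.69).

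Nuclear genes for mitochondrial proteins stood near the other genes, unlike the mitochondrially encoded ones. Of 55 nuclear respiratory chain and ATP synthase genes 5 were higher and 4 lower, against 13.5% and 12.4% of all genes, with a median of 0.03. COX7C and NDUFA13, subunits of complexes IV and I, had log2 ratios of 1.02 and 0.97. Of 30 mitochondrial ribosomal proteins 4 were higher and 1 lower (median 0.19, but 0.46 over 9 genes at 200 counts, 0.07 over 62 at 50 counts and −0.04 relative to genes of similar span), and of 21 genes for mitochondrial import, carriers and chaperones 4 were higher and 1 lower (median 0.08, and −0.12 relative to span). In the last list TIMM44, which tethers the import motor to the inner membrane channel, had 69.0 CPM in eIF3E-bound, 63.7 CPM in eIF3B-bound and 30.2 CPM in total footprints. PMPCA, of the protease that removes import signals, had a log2 ratio of 0.82, and LONP1, a matrix protease, 0.82. After eIF3e siRNA 21 of the 55 respiratory chain genes, 7 of the 30 ribosomal protein genes and 8 of the 21 import genes rose, and 0, 0 and 1 fell, beside 19.8% rising and 12% falling among the genes with at least 100 counts in either single library. LONP1 rose by 1.42 (adjusted p = 1.85e-05), PMPCA by 1.03 (adjusted p = 4.97e-07) and TIMM44 by 0.94 (adjusted p = 0.00153).

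**Figure D3:**
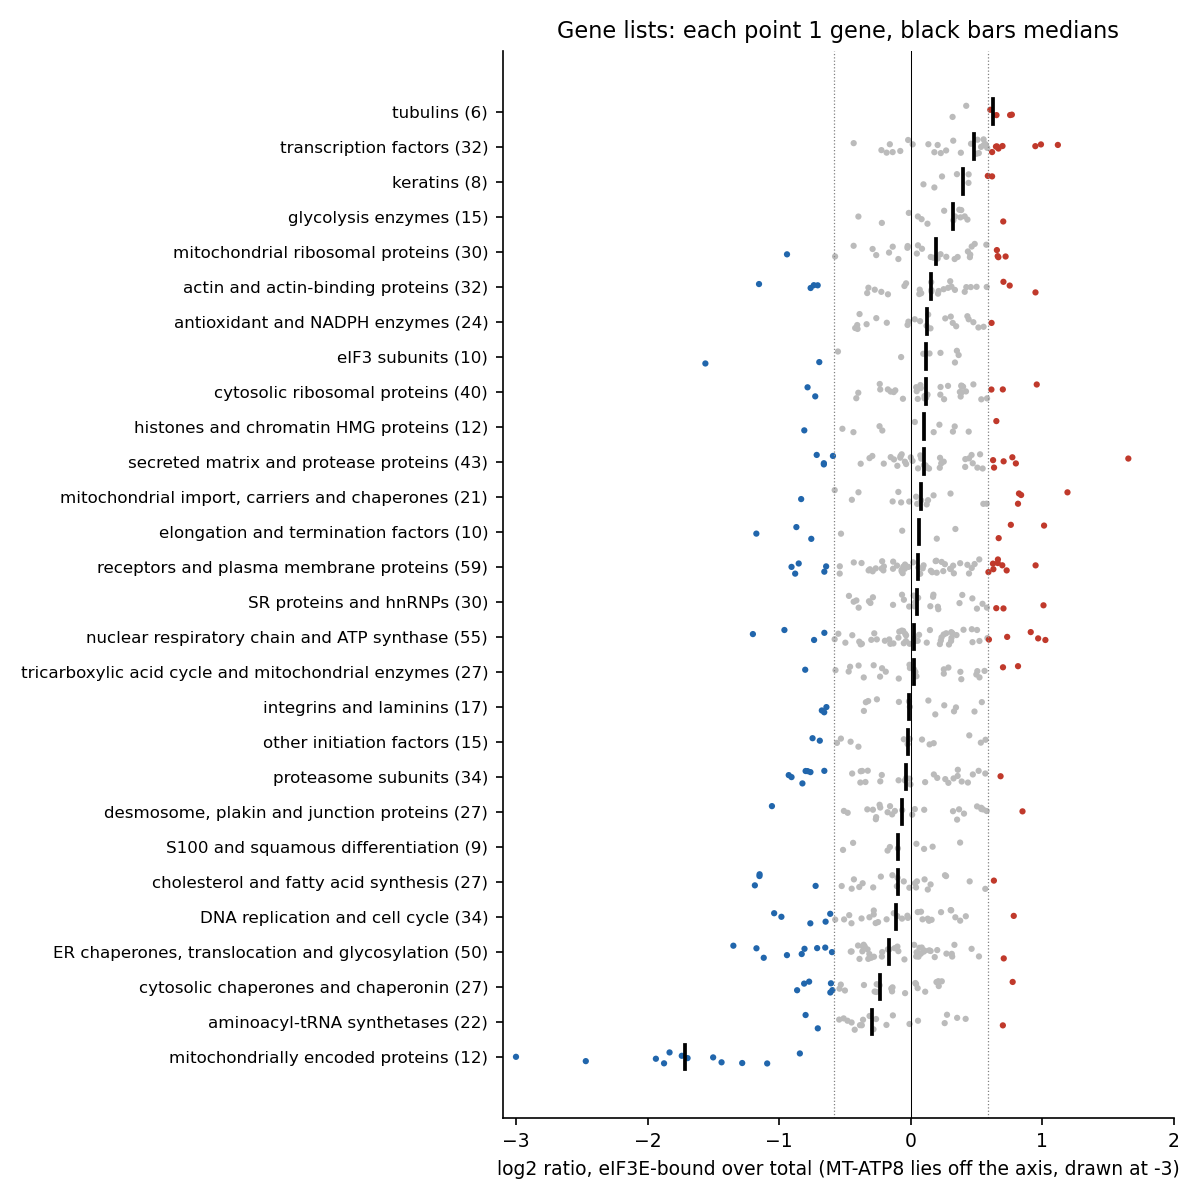
Log2 ratio of eIF3E-bound over total footprints for each member of the 28 gene lists with at least 5 members, 1 point per gene, red for at least 1.5-fold higher, blue for at least 1.5-fold lower and grey for the rest, with medians as black bars and the 1.5-fold limits dotted. The mitochondrially encoded genes, with a median of −1.72, stand apart from the other lists, whose medians lie between −0.30 and 0.63.

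Surface and secreted proteins showed both directions, and the counts in this paragraph stand beside 13.5% higher and 12.4% lower among all genes. Of 59 receptor and plasma membrane genes 8 were higher and 5 lower (median 0.06), with LRP5, a Wnt coreceptor, at 0.95 and the abundant glycoprotein gene BSG at 4479 CPM in eIF3E-bound, 4871 CPM in eIF3B-bound and 2896 CPM in total footprints. Of 43 secreted matrix and protease genes 6 were higher and 4 lower (median 0.10), among them AGRN, agrin of the basement membrane, at 0.71 and TIMP2, a protease inhibitor, at 0.80. Of 17 integrins and laminins 0 were higher and 3 lower, the integrin chains ITGB1, ITGA2 and ITGB6 with log2 ratios of −0.68, −0.66 and −0.64. Cholesterol and fatty acid synthesis had 4 lower and 1 higher of 27, with IDI1 at −1.18, MSMO1 at −1.15 and SC5D at −1.15. DNA replication and cell cycle genes had 5 lower and 1 higher of 34, with the mitotic kinase gene CDK1 at 129 CPM in eIF3E-bound, 140 CPM in eIF3B-bound and 265 CPM in total footprints. Glycolysis had 1 higher and 0 lower of 15 (median 0.32, and 0.08 relative to span), and SR proteins and hnRNPs 3 higher and 0 lower of 30 (median 0.05, and −0.13 relative to span).

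The lists still unnamed held few genes past 1.5-fold, beside 13.5% higher and 12.4% lower among all genes. Tricarboxylic acid cycle and related mitochondrial enzymes had 2 higher and 1 lower of 27, antioxidant and NADPH enzymes 1 higher and 0 lower of 24, and histones and HMG proteins 1 and 1 of 12. Desmosome, plakin and junction genes had 1 higher and 1 lower of 27, the lower being DST, dystonin, at −1.05, and the 9 S100 and squamous differentiation genes had 0 of either. Of 10 luminal mammary markers 3 reached the minimum and none was past 1.5-fold.

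A few named genes had different ratios in the eIF3B-bound library, which shares the total library as its denominator. PYCR1, an enzyme of proline synthesis, had 79.1 CPM in eIF3E-bound, 4.295 CPM in eIF3B-bound and 44.9 CPM in total footprints. Its eIF3B-bound value rests on few counts (log2 −3.39 over total, interval −4.89 to −2.17). MRPL32 of the mitochondrial ribosome had 79.1 CPM in eIF3E-bound, 19.3 CPM in eIF3B-bound and 49.8 CPM in total footprints. SC5D, which desaturates a cholesterol precursor, was at 55.2 CPM in eIF3E-bound, 131 CPM in eIF3B-bound and 122 CPM in total footprints. In eIF3E-bound and total footprints PYCR1 had 126 and 55 counts, MRPL32 126 and 61 and SC5D 88 and 150, so each reached the minimum in 1 of these libraries only. For PYCR1 and MRPL32 the eIF3B-bound library lay farther from the total library, and for SC5D the eIF3E-bound library did. Median log2 ratios of eIF3B-bound over total were −1.89 for mitochondrially encoded genes, 0.28 for transcription factors, 0.44 for tubulins and 0.24 for keratins. They were −0.26 for cytosolic chaperones and −0.20 for aminoacyl-tRNA synthetases, but −0.03 for the ER list and −0.01 for mitochondrial ribosomal proteins.

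Genes that were higher in eIF3E-bound footprints had shorter genomic spans, from transcription start to end in RefSeq (GRCh38.p14), than genes that were lower. The median span was 15.9 kb for higher genes, 55.6 kb for lower genes and 30.8 kb for those between. Over 3277 nuclear genes Spearman's rho between span and log2 ratio was −0.327, a description across genes of 2 libraries. For the eIF3B-bound library over the same total library it was −0.250. In 5 equal groups by span, with median spans of 5.06, 15.5, 31.0, 56.8 and 141 kb, the median log2 ratio was 0.29, 0.21, 0.04, −0.10 and −0.12. The eIF3B-bound library had 0.22, 0.15, −0.02, −0.14 and −0.17 in the same groups. The group with the shortest spans had 156 higher and 19 lower of 656 genes, that with the longest 41 and 130 of 656. Among the pairs of control siRNA libraries, which contain no precipitation, the same rho was −0.138 (1 over 2), −0.128 (1 over 3) and −0.0682 (2 over 3). The sign of these values depends on which library of a pair is the numerator, so only their size can be compared. Span includes introns; coding length and transcript length were not measured here.

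Several list medians moved with span. Against the median of its own span group, each gene's difference gave list medians of 0.23 for transcription factors, 0.43 for tubulins, −0.17 for cytosolic ribosomal proteins, −0.31 for proteasome subunits and −0.44 for cytosolic chaperones. The ER list had −0.24 and the aminoacyl-tRNA synthetases −0.33 on this scale. Mitochondrial DNA genes have no span in the table used and are not part of this comparison.

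**Figure D4:**
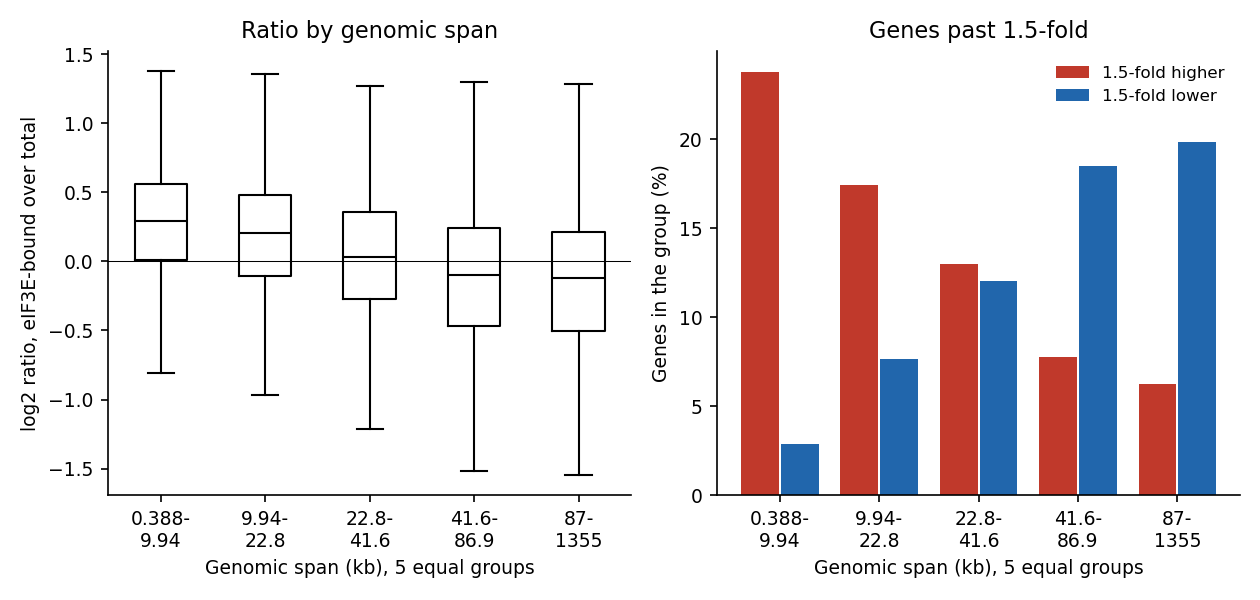
Left, log2 ratio of eIF3E-bound over total footprints in 5 equal groups of genes by genomic span in kb (boxes, quartiles with the median, whiskers to 1.5 times the box height). Right, percent of genes in each group at least 1.5-fold higher (red) or lower (blue), with 156 higher and 19 lower genes in the group with the shortest spans and 41 and 130 in the longest.

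The siRNA libraries allow a test that is independent of the ratio, of whether footprints of the same genes changed when eIF3e was depleted. Of the genes with at least 100 counts in either library, 3297 were tested, and 653 (19.8%) rose and 397 (12%) fell by edgeR's quasi-likelihood test at an adjusted p of 0.05. Genes higher in eIF3E-bound footprints had 82 rising (18.5%) and 31 falling (6.98%) of 444 tested, with a median log2 change of 0.10. Genes lower in eIF3E-bound footprints had 62 rising (15.1%) and 54 falling (13.1%) of 411, EIF3E among them, with a median of −0.06. Whether more of the lower genes rose or fell depended on the setting, with 54 rising and 67 falling under library totals. Falling genes were also more numerous without eIF3e siRNA replicate 1 (42 rising, 45 falling) or 2 (49 and 53) and without control siRNA replicate 2 (40 and 43) or 3 (57 and 64). Those between had 509 rising and 312 falling of 2442, with a median of 0.07. Whether these shares differ between the classes was not tested. Across 3297 genes rho between the ratio and the siRNA change was 0.096.

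Footprints per mRNA, tested by an interaction term between assay and siRNA over the 12 siRNA libraries, changed for few genes. Over all genes tested 7 (0.0773%) rose and 15 (0.166%) fell, and of the 3289 with at least 100 counts in either single library 5 (0.152%) rose and 10 (0.304%) fell. Of the genes higher in eIF3E-bound footprints 1 rose and 2 fell of 441, the falling ones being MT2A (log2 −1.20, adjusted p = 0.017) and KRT81 (log2 −0.69, adjusted p = 0.0391). Of the lower genes 1 rose and 3 fell of 411, with MT-ND1 (log2 −1.09, adjusted p = 0.017), MT-ND4 (log2 −1.01, adjusted p = 0.0149) and TMSB10 (log2 −1.03, adjusted p = 0.0269) falling. Each of these calls was lost when some single libraries were left out, with adjusted p-values of up to 0.179 (KRT81), and the counts over all genes then ranged from 0 to 6 rising and 0 to 13 falling.

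**Figure D5:**
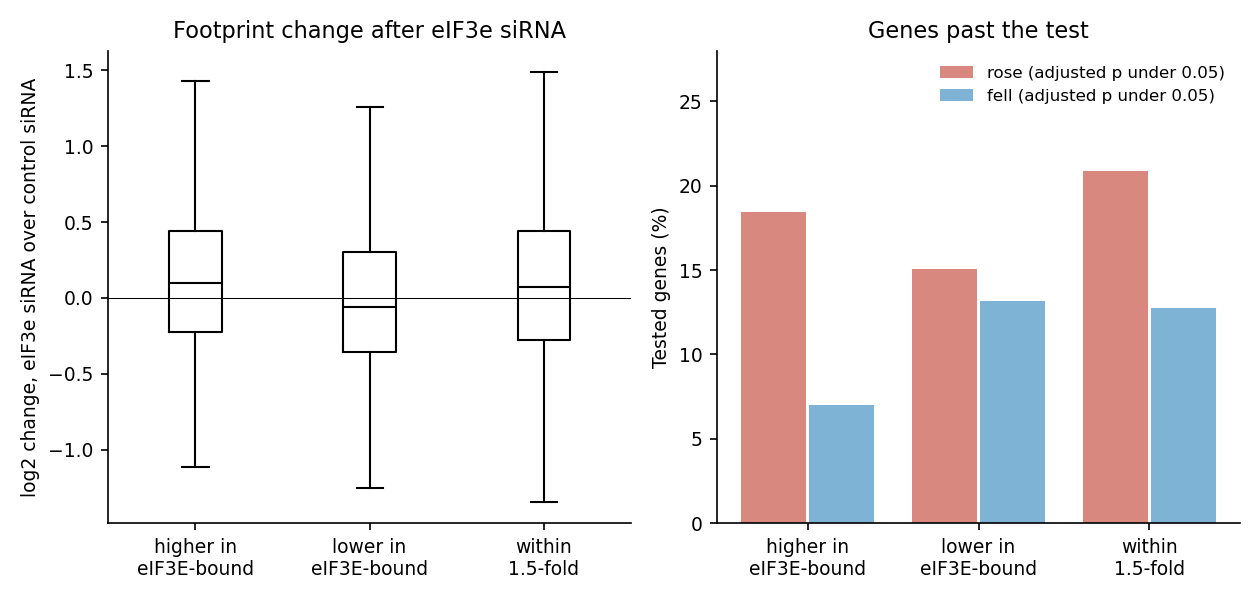
Left, log2 change of footprints after eIF3e siRNA over control siRNA for genes at least 1.5-fold higher in eIF3E-bound footprints, at least 1.5-fold lower and within 1.5-fold (boxes, quartiles with the median, whiskers to 1.5 times the box height, 3 libraries per siRNA). Right, percent of tested genes in each class that rose or fell, 18.5% and 6.98% for the higher class and 15.1% and 13.1% for the lower. The classes differ in control footprint level, and the shares were not compared by a test.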

How the data were processed

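Ribosome footprints and total RNA of MCF-10A cells were sequenced in 15 libraries. The authors deposited raw read counts per gene symbol, whole numbers with no normalization, per the file headers and values. Per the submitters' processing notes, the tools included HTSeq, STAR 2.5, Bowtie 1.1.2 and cutadapt 1.18, with the build GRCh38 (hg38); annotation, strand setting and counted feature are not stated. Per the labels' protocols, footprints of 26 to 34 nt were taken after digestion with RNase I. All sample columns were mapped from sample titles, and no column was left over. PCR reads carry no molecular identifiers, so intervals and floors (3 counts of the library total) cover counting error only.

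The eIF3E-bound and eIF3B-bound columns were scaled to the total column with TMM factors (0.977 for eIF3E-bound), and ratios were given with exact conditional 95% intervals (Python 3.11.15, scipy 1.17.1). The siRNA counts were fitted with edgeR 4.0.16 in R 4.3.3 (filterByExpr, minimum count 10, TMM factors, robust quasi-likelihood F test, two-sided, siRNA as the only term; for footprints per mRNA the interaction of assay and siRNA over 12 libraries), and p-values were adjusted by Benjamini-Hochberg over every gene in the fit, with calls at 0.05. Scripts were tested on simulated data with 200 changed genes. Alternatives were library totals, DESeq2 1.42.0 size factors and Wald test, other count minimums, a 2-fold limit, the replicate block and leaving out each library.

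Members, gene lists (30) and tests were chosen with earlier results of these data known. The text names the eIF3 subunits, the 15 genes higher and 15 lower whose interval bound lies farthest from equality, and per list up to 4 genes by the same ranking in the direction of its median, or the 2 most abundant where none was past 1.5-fold; some genes that this rule names are not reported here. Genomic spans come from RefSeq (GRCh38.p14), in which 99.3% of the genes were found by current or older symbol.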

Additional observations from a re-analysis of the deposited data

How the results depend on the processing

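The number of genes past the limit changed with the limit and with the count minimum, which also sets how many genes are counted. In the order higher and lower it was 195 and 170 of 1683 genes at 200 counts in either library and 870 and 824 of 5409 at 50 counts. It was 160 and 273 of 2353 at 100 counts in both, and 96 and 101 of 3302 at 2-fold, against 447 and 411 of 3302. With library totals it was 403 and 446, with DESeq2 size factors 465 and 407, and without mitochondrially encoded genes in the scaling 449 and 399. Chosen after seeing the data, a minimum mean of 100 counts in the control siRNA footprints gave 307 higher and 509 lower of 2989 genes. Of 345 values of named genes under other scalings 344 stayed inside their interval, and none turned its direction. Each scaling moves all log2 ratios by the same small amount, so these counts say nothing about single genes.

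The median of the mitochondrially encoded genes was −1.47 with 100 counts in both libraries, and that of the transcription factors 0.35. Relative to 5 groups by genomic span, a comparison added after seeing the data, transcription factors had 0.23, tubulins 0.43 and cytosolic chaperones −0.44, and with the minimum on control siRNA counts cytosolic chaperones had −0.15. Of 238 list medians under alternatives 192 stayed within the spread of the control libraries. The rank correlation with span was −0.340 to −0.292.

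Leaving out each siRNA library in turn gave 668 to 879 rising and 546 to 821 falling genes, against 926 and 781. Among genes higher in eIF3E-bound footprints it gave 60 to 75 rising and 20 to 35 falling, and among lower genes 40 to 62 and 39 to 64; without control siRNA replicate 2 the higher genes had 20 falling and the lower genes 40 rising. Footprints per mRNA, with 7 rising and 15 falling genes, had 3 and 89 with library totals, 79 and 65 with the DESeq2 Wald test, 18 and 27 at a minimum count of 50, 22 rising with no filter, and 0 to 6 rising and 0 to 13 falling when a library was left out. At an unadjusted p under 0.05 there were 1075. The replicate block gave 901 rising and 775 falling footprints and 13 rising genes for footprints per mRNA. Same-numbered libraries correlated at −0.001, 0.026 and 0.004 in their deviations, so the numbers were not taken to pair them.

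Depth limits the ratios of genes near 100 counts most, with a median interval half-width of 0.41 for the genes with the fewest control siRNA counts and 0.18 for those with the most. The planned comparison with protein length and sequence features was not run, because no protein table was at hand.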

Other observations

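Values at the edge of the count minimum were as follows. The 45 genes whose larger count was 100 to 101 had a median log2 ratio of −0.11, with 3 higher and 8 lower. The 46 genes just under it, at 98 to 99 counts, had a median of 0.07, with 8 higher and 4 lower.

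Promoter base composition was available for 2723 of the genes (82.5%), as the GC content of 250 bases before to 50 after the start in RefSeq (GRCh38.p14). In 5 equal groups by GC content the median log2 ratio was −0.05, 0.02, 0.06, 0.15 and 0.16, and Spearman's rho across genes was 0.149. The group with the lowest GC content had 7.39% higher and 14.6% lower genes, and that with the highest 18.2% and 9.38%. Total RNA levels in the control siRNA libraries had a rho of −0.090 with the ratio, control footprint levels −0.173 and control footprints per mRNA −0.123.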
